A study of Mus musculus with 18 samples.

Results

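RNA sequencing was used to ask which genes changed when mouse cells labelled as lung microvascular endothelium, after siRNA against CYP1B1, were then given estradiol (E2). The comparison set 3 libraries of cells treated with 1 µM E2 against 3 libraries of cells given vehicle, all 6 transfected with the CYP1B1 siRNA. Of 15288 genes in the table, 11822 had a mean of at least 1 CPM (a read count scaled to the library's total) over those 6 libraries and were tested, and 3466 fell below that minimum. The whole series holds 18 libraries in 6 groups of 3: scrambled siRNA or CYP1B1 siRNA, each with vehicle, 1 µM E2 or 1 µM 16aOHE, an estrogen metabolite. Dishes of 60 mm received 5 µl of a 10 µM siRNA stock with a lipid reagent, 2 h after a medium change, and the estrogen was added 24 h later for 24 h in 5% serum. Every group had thus been transfected, and no untransfected cells were among the samples. Whether the libraries of 1 group are separate cultures is not stated, and the p-values therefore measure only sample-to-sample spread, which may be technical.

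Estradiol is the main estrogen of the circulation. It enters cells and binds the estrogen receptors encoded by Esr1 and Esr2, which act on transcription, and a membrane receptor encoded by Gper1 is also bound. CYP1B1 is a cytochrome P450 of the endoplasmic reticulum that hydroxylates estradiol and other ring compounds. The catechol estrogens formed in this way can be methylated or oxidized to reactive quinones, which NQO1 reduces, and estrogens made and metabolized in the lung have long been studied in pulmonary hypertension.

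Cyp1b1 (mm10 chr17:79706953-79715041, minus strand) was only modestly lower in the libraries labelled siCYP1B1. Under vehicle it read 80.8, 82.2 and 81.3 CPM there, against 89.1, 91.4 and 96.1 CPM with scrambled siRNA, so that the groups did not overlap and the mean stood at 88.3% of scrambled. An exact two-sided permutation test gave p = 0.1, the smallest that 3 against 3 allows. With E2 the siCYP1B1 libraries read 100.4, 104 and 104 CPM, all above the vehicle libraries, a rise of 0.33 on the log2 scale (SE 0.0345, adjusted p = 4.67e-07). The lowest of these E2 libraries lay above the highest vehicle library of either siRNA. Esr1 read 13.5, 13.9 and 13.8 CPM with vehicle and 13.6, 13.3 and 15.3 CPM with E2, with overlapping groups and a difference of 0.03 (95% interval -0.17 to 0.23, adjusted p = 0.865). Esr2 averaged 0.157 CPM and Gper1 0.0727 CPM over the 6 libraries, too low to be tested.

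The labels call the cells pulmonary microvascular endothelial cells, while the series title names smooth muscle cells. Defining endothelial genes were close to 0: Pecam1, the junction protein of endothelium, averaged 0.0449 CPM and Vwf, the clotting factor stored by endothelium, 0.00661 CPM. Genes that define contractile smooth muscle were also low, with Myh11, smooth muscle myosin, at 0.0448 CPM and Cnn1, calponin, at 0.0665 CPM. Several genes that mark mesothelium, the lining of the lung surface, were abundant, with Msln at 1404 CPM, Upk3b at 637 CPM and Krt19 at 411 CPM. Others on the same list were not: Krt8 and Calb2 lay below the minimum of 1 CPM, Muc16 was absent, and Krt18 was low. Summed CPM over 13 mesothelial markers was 4625 to 4811 with vehicle and 3779 to 3838 with E2. The sums were 5302 to 5601 and 3524 to 3648 for 12 fibroblast and pericyte markers, 263 to 271 and 199 to 209 for 16 endothelial markers, 1179 to 1221 and 1192 to 1217 for 11 smooth muscle markers, 18.8 to 20.0 and 8.54 to 10.3 for 9 epithelial markers, and 41.3 to 44.5 and 39.9 to 42.7 for 7 leukocyte markers. Such sums are weighted to their most abundant members. Col3a1, in the fibroblast and pericyte list, averaged 2729 CPM with vehicle and 1434 CPM with E2, and 4 of the 8 tested members of that list were called lower. Msln, in the mesothelial list, was not called, as given below. The sums are thus not a measure of how many cells of a type were present. Because these are bulk libraries, fewer cells of a type and less RNA per cell cannot be told apart.

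E2 separated the 6 libraries along the first principal component, which held 58.7% of the variance, while the second (16.0%) set library 1 of each group apart from libraries 2 and 3. Nuclear-retained RNAs were highest in those first libraries: Malat1 read 353, 259 and 267 CPM with vehicle and 624, 398 and 336 CPM with E2. The summed level of 5 such RNAs was 342.3 to 468.8 CPM with vehicle and 440.9 to 790.9 CPM with E2, and none of the 3 tested passed the threshold on deposited CPM (Malat1 difference 0.59, adjusted p = 0.0514), while 1 was higher after quantile normalization. The median log2 difference of these 3 was 0.43 with E2, and 0.37 without library 1 of both groups. With 16aOHE against the same vehicle libraries it was 0.44. Ribosomal protein genes, listed as another sign of RNA quality, had medians of -0.23 with E2 and -0.22 with 16aOHE. The part of RNA quality or library preparation in the results below was not tested. Counts of called genes are therefore also given with library 1 of both groups left out. Read from the step between low values, 1 CPM stood for 21.4 to 26.7 reads in the 6 libraries, and correlations of log values were 0.9967 to 0.9978 within a group and 0.9915 to 0.9932 between groups.

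**Figure D1:**
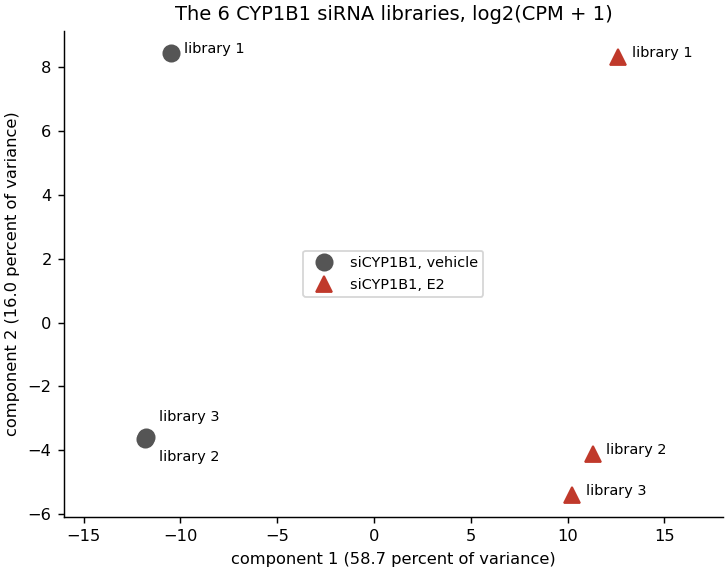
The 6 siCYP1B1 libraries on the first and second principal components of log2(CPM + 1) over the tested genes, circles for vehicle and triangles for E2, numbered as in the text. E2 libraries lie on the right along the first component, and library 1 of both groups lies apart from libraries 2 and 3 along the second.

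With E2, 1972 genes were higher (16.7% of those tested) and 1282 lower (10.8%) at an adjusted p below 0.05 from limma on log2(CPM + 1). The list counts below are to be read beside these shares, and a list near them does not stand out. Most changes were small: the median log2 difference of called genes was 0.23 for increases and -0.25 for decreases, and only 3 called genes rose and 36 fell by at least 2-fold on that scale. The balance of directions depended on scaling, because 60.6% of called genes were higher on the deposited CPM, 45.8% with median-of-ratios factors (1368 higher, 1620 lower) and 50.9% after quantile normalization (1540 higher, 1488 lower). Without library 1 of both groups, 1212 genes were higher and 871 lower. The minimum on the mean let in 58 tested genes with a vehicle mean below 1 CPM, 11 of them called, and 62 with an E2 mean below 1 CPM, 17 of them called. Fcgr3, at 1.001 CPM, lay just inside the minimum and Bach2, at 0.9989 CPM, just outside.

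Mt2 had the largest increase among the genes named here, as a log2 difference or as a fold of CPM, and its neighbour Mt1 rose with it. Both encode metallothioneins, small cysteine-rich proteins that bind zinc and copper. Mt2 (mm10 chr8:94172618-94173567) read 12, 13.8 and 12.8 CPM with vehicle and 45.9, 44.6 and 43.4 CPM with E2, and Mt1 (mm10 chr8:94179089-94180327) read 91.2, 88.3 and 96.7 CPM and 197, 193 and 199 CPM. Every E2 library lay above every vehicle library for both genes. Mt2 was 3.47-fold higher on the CPM scale (log2 difference 1.72, 95% interval 1.56 to 1.89, SE 0.0792, adjusted p = 2.47e-12), and Mt1 2.13-fold higher (1.09, SE 0.0732, adjusted p = 1.29e-09). The pair lie on the same strand of chromosome 8 with 5521 bases between them. Their promoters are shown because both genes moved together and because metal response elements, bound by the zinc sensor MTF1, are the textbook control sites of the family. The windows run from 250 bases before to 50 after the RefSeq start (GRCm38.p6, plus strand, Mt2 at chr8:94172368-94172667 and Mt1 at chr8:94178839-94179138), written 5′ to 3′ with matches to the element core TGCACNC or TGCGCNC on either strand in capitals.
Mt2: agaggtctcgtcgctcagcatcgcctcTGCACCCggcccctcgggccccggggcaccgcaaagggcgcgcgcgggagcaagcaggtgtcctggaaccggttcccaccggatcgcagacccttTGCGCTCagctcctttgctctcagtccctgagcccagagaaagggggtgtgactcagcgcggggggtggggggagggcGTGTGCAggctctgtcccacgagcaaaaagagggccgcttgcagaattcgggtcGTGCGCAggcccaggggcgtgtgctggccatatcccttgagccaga
Mt1: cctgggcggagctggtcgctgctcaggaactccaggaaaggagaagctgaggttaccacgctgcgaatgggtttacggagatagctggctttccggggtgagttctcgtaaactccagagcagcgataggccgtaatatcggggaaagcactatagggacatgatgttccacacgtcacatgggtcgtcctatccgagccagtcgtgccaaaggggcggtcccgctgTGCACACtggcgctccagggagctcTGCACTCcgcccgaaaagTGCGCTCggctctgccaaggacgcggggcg
The Mt2 window held 4 matches and the Mt1 window 3, while 12.6% of all 32851 promoter windows held the first form of the core and 15.4% the second. A match describes the letters and is not evidence that a factor was bound. Among the other genes of zinc handling, the sensor Mtf1 rose from 29.7 to 34.5 CPM (log2 difference 0.21, adjusted p = 0.0169), a call lost after quantile normalization (0.15) and without vehicle library 2 (0.15) or E2 library 2 (0.20). The importer Slc39a10 fell from 242 to 152 CPM (-0.67, adjusted p = 5.8e-09), so that 3 of the 8 tested members were higher and 1 lower.

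Genes of the oxidative stress response driven by NRF2, a transcription factor activated in cells exposed to electrophiles, rose more often than they fell. Of 24 tested members 12 were higher and none lower, and the median log2 difference was 0.11 against 0.04 over all tested genes. With median-of-ratios factors 10 were higher and 1 lower, and without library 1 of both groups 11 were higher and none lower. Hmox1, heme oxygenase, read 234, 217 and 236 CPM with vehicle and 353, 328 and 316 CPM with E2, with every E2 library higher (1.45-fold, log2 difference 0.53, SE 0.0464, adjusted p = 3.63e-08). Nqo1, the quinone reductase, read 161, 148 and 176 CPM and 203, 212 and 219 CPM (0.39, adjusted p = 5.67e-05), again without overlap. The ferritin light and heavy chains, which store iron, rose as Ftl1 from 556 to 819.8 CPM (0.56) and Fth1 from 1434 to 1794 CPM (0.32). Slc7a11, the cystine importer that feeds glutathione synthesis, had the largest difference of the list (0.71), and Sqstm1, an autophagy receptor, rose from 651 to 885 CPM (0.44). The messenger of NRF2 itself, Nfe2l2, fell from 343 to 305 CPM (-0.17, adjusted p = 0.00715). Of the 19 members with a promoter window, 7 held the antioxidant response element core TGACNNNGC, which 12.4% of all windows hold. The Nqo1 window held no match.

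Many genes of the ATF4 and unfolded protein response were higher. Cells use this response when amino acids run short or proteins misfold in the endoplasmic reticulum. Of 27 tested members 18 were higher and 2 lower, with a median log2 difference of 0.26, and without library 1 of both groups the counts were 17 and 0. The transcription factor Atf4 rose from 227 to 289 CPM (0.35, adjusted p = 3.2e-05) and its partner Ddit3, also called CHOP, from 57.4 to 80.3 CPM (0.48). Trib3, a pseudokinase that restrains this response, read 13.0, 13.9 and 14 CPM with vehicle and 29.1, 26.4 and 24.1 CPM with E2, with no overlap (1.95-fold, log2 difference 0.91, SE 0.0791, adjusted p = 3.63e-08). Chac1, which degrades glutathione, read 16.2, 13.8 and 17.5 CPM and 28.5, 27.7 and 28.2 CPM, also without overlap (1.78-fold, 0.80, adjusted p = 4.78e-07). Asns, asparagine synthetase, rose from 65.9 to 100.4 CPM (0.60), and the mitochondrial folate enzymes Aldh1l2 (from 25.9 to 47.9 CPM, 0.87) and Mthfd2 (from 88.2 to 113 CPM, 0.36) rose as well. Hspa5, the main endoplasmic reticulum chaperone, differed by -0.04 (adjusted p = 0.404), while Xbp1 (-0.16) and the chaperone Calr (-0.11) were the 2 members called lower. The call of Calr was lost under 9 of 16 alternatives, quantile normalization (-0.06) included, and that of Xbp1 without vehicle library 1 (-0.14), vehicle library 3 (-0.12), E2 library 3 (-0.13) or library 1 of both groups (-0.16). Among 16 tested amino acid transporters 5 were higher and 2 lower. The leucine exchanger Slc7a5 (0.34) and its heavy chain Slc3a2 (0.30) were among those that rose, and Slc43a1 (-0.53, -0.28 with a pseudocount of 4 CPM), another leucine carrier, fell. The window of Chac1 (GRCm38.p6 chr2:119350992-119351291, plus strand) is shown with its match to the C/EBP-ATF response element core TGATGNAA, a motif searched after the values were seen, in capitals.
Chac1: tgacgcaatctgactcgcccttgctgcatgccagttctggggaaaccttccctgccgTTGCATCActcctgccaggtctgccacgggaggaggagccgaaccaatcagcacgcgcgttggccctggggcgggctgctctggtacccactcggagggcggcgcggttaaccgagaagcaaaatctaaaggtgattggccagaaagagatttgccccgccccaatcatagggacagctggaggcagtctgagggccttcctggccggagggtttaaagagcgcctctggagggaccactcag
Of the 26 members of the list with a window 8 held this core (Asns, Atf3, Chac1, Herpud1, Pck2, Slc7a11, Trib3 and Vldlr), against 3.97% of all windows.

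Lysosomal genes were higher in 13 of 21 tested members and lower in 1, with a median log2 difference of 0.23, and the counts were 12 and 1 without library 1 of both groups. Mcoln1, the calcium channel of the lysosomal membrane, read 47.6, 47.5 and 50.8 CPM with vehicle and 74.5, 67.9 and 69.2 CPM with E2 (1.45-fold, log2 difference 0.53, SE 0.0637, adjusted p = 3.27e-06). Neu1, the lysosomal sialidase, rose from 60.8 to 85.9 CPM (0.49, adjusted p = 1.1e-06). Tfeb, which encodes a transcription factor that switches on lysosomal genes, was the member that fell (from 26.1 to 19.6 CPM, -0.39, adjusted p = 7.62e-05). The Mcoln1 window (GRCm38.p6 chr8:3500269-3500568, plus strand) is shown with matches to GTCACGTG, the core of the coordinated lysosomal expression and regulation element to which TFEB binds, in capitals.
Mcoln1: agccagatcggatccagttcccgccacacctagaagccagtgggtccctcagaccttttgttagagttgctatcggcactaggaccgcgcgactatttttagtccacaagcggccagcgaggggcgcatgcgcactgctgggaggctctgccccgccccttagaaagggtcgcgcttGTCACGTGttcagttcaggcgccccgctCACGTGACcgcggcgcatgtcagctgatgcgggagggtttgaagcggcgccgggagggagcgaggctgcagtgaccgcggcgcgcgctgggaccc
This motif was also chosen after the values were seen. It occurred in the windows of 6 of 16 lysosomal members (Atp6v0d1, Ctsa, Ctsd, Glb1, Lamp1 and Mcoln1) and in 2.25% of all windows. The Neu1 window held no match to this core. The letters GTCACGTG contain the hypoxia element core NACGTG, so that both are counted at such a site.

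Glucose handling and hypoxia targets were higher in 13 of 26 tested members and lower in 1 (median 0.10). Median-of-ratios factors, and leaving out library 1 of both groups, each left 10 higher and 1 lower. Bnip3, a mitophagy receptor induced by low oxygen, read 3.96, 4.62 and 4.67 CPM with vehicle and 9.83, 9.11 and 9.86 CPM with E2 (2.17-fold, log2 difference 0.97, SE 0.0986, adjusted p = 3.1e-07). Across the alternatives its log2 difference ran from 0.69 to 1.08. Pdk1, the kinase that holds pyruvate out of the mitochondrial cycle, rose from 13.4 to 24.1 CPM (0.81, adjusted p = 8.23e-08). The glucose transporter Slc2a1 (0.48) and the oxidoreductase Ero1l (0.58) rose too, while a second transporter, Slc2a3, fell (-0.46). Vegfa, the growth factor for endothelium, read 65.3, 54.5 and 58.4 CPM and 101, 89.5 and 87.1 CPM, without overlap (0.63, adjusted p = 2.87e-06). A list of VEGF and angiopoietin ligands and receptors also holds angiopoietin-like proteins, and of its 13 tested members 2 were higher and 6 lower. The ligand Vegfd (-0.51) and the receptor Flt1 (-0.37) were among the lower ones. So were the angiopoietin-like Angptl2 (-0.52), Angptl4 (-0.94) and Angptl7 (-0.75). The other increase, Angpt2, read 0.476, 1.91 and 0.32 CPM and 1.77, 2.02 and 2.89 CPM (difference 0.84, and 0.36 with a pseudocount of 4 CPM), overlapped between groups, and lost its call without vehicle library 1 (0.70), vehicle library 3 (0.62), E2 library 3 (0.70) or library 1 of both groups (0.81). Among 22 hypoxia-list members with a window, 15 held NACGTG, which 19.6% of all windows hold.

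Clock genes were higher in 6 of 16 tested members and lower in none, and with either other scaling 2 were lower. The repressors Nr1d1 (from 91.9 to 127 CPM, 0.46, adjusted p = 0.000755) and Nr1d2 (0.21) and the output factor Dbp (from 60.3 to 84.6 CPM, 0.48) were among them. Enzymes of estrogen metabolism were higher in 6 of 10 tested members, Cyp1b1 and Nqo1 included, and lower in 2, counts that were 4 and 1 without library 1 of both groups. The steroid dehydrogenase Hsd17b11 rose (0.21). Hsd17b7, which acts in estrogen and cholesterol synthesis, was called lower (-0.17), a call lost under 7 of 16 alternatives, leaving out vehicle library 2 (-0.16) or 3 (-0.16), E2 library 2 (-0.18) or 3 (-0.14) or library 1 of both groups (-0.22) among them. Of p53 targets, 7 of 23 were higher, Mdm2 (0.26) and Gadd45a (0.49) among them, and 3 lower, while the median of the list was 0.02 on deposited CPM and -0.02 with median-of-ratios factors. Interferon genes split 7 higher and 2 lower of 32 on deposited CPM, beside 16.7% and 10.8% of all tested genes. The counts were 5 and 5 with median-of-ratios factors, and 4 and 2 without library 1 of both groups. Rsad2, the antiviral enzyme viperin, stood out among the interferon genes (103 to 154 CPM, 0.58, adjusted p = 6.33e-07).

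Canonical estrogen receptor targets did not rise as a list. Of 16 tested, 3 were higher and 6 lower, beside 16.7% and 10.8% of all tested genes, and the median was -0.06. Stc2, a secreted glycoprotein, read 10.7, 12.8 and 13.6 CPM with vehicle and 23.1, 19.6 and 23.6 CPM with E2 (1.79-fold, log2 difference 0.79, SE 0.0952, adjusted p = 2.9e-06), and Abca3 rose slightly (0.22). Bcl2 was called higher (0.17), but the call was lost under 10 of 16 alternatives, both other scalings (0.14 and 0.12) and each library left out (0.19, 0.17 and 0.14 for vehicle, 0.14, 0.18 and 0.19 for E2) included. Myc (-0.25), Igfbp4 (-0.47), Gata3 (-0.29), Krt19 (-0.56) and Xbp1 (as above) fell, and so did Tgfa (-0.20), whose call was lost without vehicle library 2 (-0.20), vehicle library 3 (-0.18) or E2 library 2 (-0.16). Ccnd1, the cyclin often used as a readout of estrogen action, averaged 1505 CPM and 1515 CPM (difference 0.01, adjusted p = 0.853), and Greb1 was too low to be tested (0.0906 CPM). Of 8 tested receptors and coregulators 3 were higher and none lower: the coactivator Ncoa1 (0.34), the corepressor Nrip1 (0.35) and the orphan receptor Esrra (0.20), whose call was lost without vehicle library 1 (0.15) or library 1 of both groups (0.16).

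**Figure D2:**
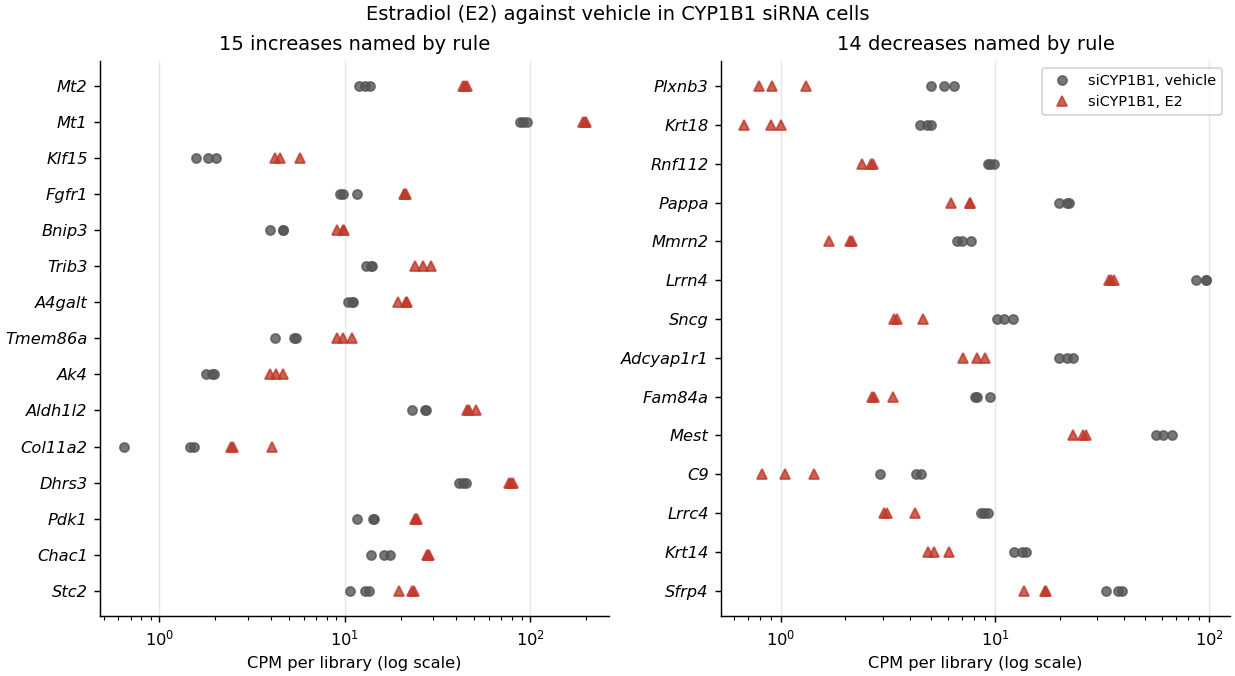
CPM of each of the 6 siCYP1B1 libraries on a log axis for 15 increases (left) and 14 decreases (right) among those with the largest log2 difference among called, non-overlapping genes with an established name, circles for vehicle and triangles for E2. For each gene shown the 3 triangles lie on the same side of the 3 circles.

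Beyond the lists, increases of similar size were seen for Klf15, a transcription factor of amino acid and lipid catabolism (from 1.81 to 4.81 CPM, 1.04), and Fgfr1, a fibroblast growth factor receptor (from 10.3 to 21.2 CPM, 0.98, adjusted p = 1.67e-06). Dhrs3, which reduces retinal, read 45.2, 41.5 and 43.2 CPM and 81.1, 76.8 and 79.2 CPM (0.85, adjusted p = 3.89e-09). A4galt, the transferase that makes the globoside precursor Gb3, read 11.1, 10.4 and 11 CPM and 21.7, 19.3 and 21.5 CPM (0.88, adjusted p = 3.05e-08). Of 8 tested glycosphingolipid transferases, A4galt included, 2 were higher and 1 lower, beside 16.7% and 10.8% of all tested genes. The counts were 1 and 3 with median-of-ratios factors. Tmem86a, a lysoplasmalogenase, rose from 5.01 to 9.97 CPM (0.87), and Ak4, a mitochondrial adenylate kinase, from 1.89 to 4.28 CPM (0.87). These low genes depend on the pseudocount, and with 4 CPM in place of 1 the difference was 0.60 for Klf15 and 0.49 for Ak4. For Tmem86a it ran from 0.63 to 0.96 across the alternatives. For Col11a2, a cartilage collagen chain near the minimum (1.47, 1.54 and 0.641 CPM with vehicle, 4.03, 2.44 and 2.51 CPM with E2), the difference of 0.85 (0.42 with 4 CPM) lost its call when vehicle library 3 (0.65), E2 library 1 (0.68) or library 1 of both groups (0.77) was left out.

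On the log2(CPM + 1) scale the decreases were deepest, among the genes named here, for Plxnb3, a semaphorin receptor, and Krt18, a keratin of simple epithelia. Plxnb3 read 5.75, 5.04 and 6.45 CPM with vehicle and 0.906, 1.31 and 0.787 CPM with E2 (5.74-fold lower, log2 difference -1.76, SE 0.141, adjusted p = 1.25e-08). Krt18 read 4.80, 5.04 and 4.44 CPM and 0.997, 0.675 and 0.899 CPM (5.55-fold lower, -1.64, adjusted p = 1.62e-08). All 3 E2 libraries lay well below all vehicle libraries for both, and those of Krt18 were all below 1 CPM. The order depends on the pseudocount: with 4 CPM the differences were -0.96 and -0.85, smaller than -1.33 for Lrrn4, a mesothelial gene. Rnf112, a ubiquitin ligase, fell from 9.54 to 2.58 CPM (-1.56), Adcyap1r1, the receptor for the neuropeptide PACAP, from 21.5 to 8.10 CPM (-1.31), and Mest, an imprinted gene, from 61.4 to 25.2 CPM (-1.25). Sfrp4, a secreted Wnt antagonist (from 36.7 to 16.0 CPM, -1.15), and C9, a complement component (from 3.89 to 1.10 CPM, -1.22, and -0.63 with 4 CPM), also fell. Mmrn2, an endothelial matrix protein, fell from 7.10 to 1.97 CPM (-1.45, and -0.89 with 4 CPM), and Sncg, gamma-synuclein, from 11.1 to 3.82 CPM (-1.34). These neighbours lie on opposite strands of chromosome 14 with their starts at the adjacent ends and 834 bases between them. Lrrc4, a synaptic adhesion protein (from 8.91 to 3.45 CPM, -1.16), and Fam84a (from 8.58 to 2.90 CPM, -1.30) were also among the genes with the largest decreases. Across the alternatives the differences ran from -1.32 to -0.80 for Lrrc4 and from -1.49 to -0.87 for Fam84a.

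Most mesothelial markers fell. Of 11 tested 9 were lower and none higher (median -0.56), also under both other scalings and without library 1 of both groups. Lrrn4, a mesothelial surface protein, read 87.3, 97.2 and 96.9 CPM with vehicle and 34.7, 34.1 and 36.0 CPM with E2 (2.68-fold lower, -1.40, SE 0.0488, adjusted p = 3.84e-14). Upk3b, an uroplakin, read 757, 828 and 805 CPM and 464, 484 and 485 CPM (-0.74, adjusted p = 1.15e-11), and Krt19 (-0.56), Gpm6a (-0.37) and Upk1b (-0.34) fell less. Msln, the most abundant marker of the list, averaged 1403 CPM with vehicle and 1405 CPM with E2, a difference of 0.00 (95% interval -0.10 to 0.10, adjusted p = 0.99). Bnc1 read 147 CPM and 142 CPM (difference -0.04, adjusted p = 0.389). Of 7 tested endothelial markers 5 were lower, Esam (from 21.4 to 10.9 CPM, -0.92), Cd34 (from 90.1 to 67.6 CPM, -0.41), Flt1, Eng (-0.35, call lost without vehicle library 3, -0.29) and Mmrn2. Among 7 tested smooth muscle markers 2 were lower, Acta2, smooth muscle actin (from 21.7 to 12.3 CPM, -0.78), and Tpm2 (-0.17, call lost without E2 library 3, -0.11). Of 8 tested fibroblast and pericyte markers 4 were lower, all of them collagen chains or Dcn. The only tested epithelial markers, Krt14 (from 13.2 to 5.37 CPM, -1.16) and Cdh1 (from 3.94 to 2.06 CPM, -0.70, and -0.39 with a pseudocount of 4 CPM), fell as well, whereas none of 4 tested leukocyte markers passed the test.

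Collagens and their partners were lower in 12 of 28 tested members and higher in 3 (median -0.17), with counts of 12 and 2 without library 1 of both groups. Col3a1, a fibrillar chain, read 2721, 2798 and 2669 CPM with vehicle and 1393, 1446 and 1464 CPM with E2 (1.90-fold lower, -0.93, SE 0.0338, adjusted p = 4.41e-14). Col6a2, a chain of the microfibrils around cells, read 165, 166 and 162 CPM and 70.0, 76.2 and 81.3 CPM (-1.11, adjusted p = 1.5e-09). Its partner chain Col6a1 (-0.55), Col1a2 (-0.64) and the proteoglycan Dcn (-0.61) fell with them. The lysyl hydroxylase Plod1 (0.42) and the prolyl hydroxylase P4ha1 (0.27) rose. P3h1, the other member called higher (0.11), lost its call under 10 of 16 alternatives, both other scalings (0.08 and 0.08) and each library left out (0.09, 0.13 and 0.11 for vehicle, 0.10, 0.11 and 0.12 for E2) included. Of 15 tested matrix proteases and inhibitors 7 were lower and 3 higher. The aggrecanases Adamts1 (from 87.1 to 49.0 CPM, -0.82) and Adamts5 (from 92.9 to 53 CPM, -0.80) and the inhibitor Timp1 (-0.31) fell, and Mmp13 (0.52), Mmp11 (0.40) and Mmp3 (0.39) rose. Without library 1 of both groups these 3 missed the threshold at differences of 0.54, 0.33 and 0.39. Mmp13 also missed it without vehicle library 2 (0.43), and Mmp3 without vehicle library 2 (0.31), E2 library 1 (0.35) or E2 library 3 (0.32). In TGF-beta signalling, 3 of 19 tested members were higher and 4 lower, beside 16.7% and 10.8% of all tested genes. The ligand Tgfb3 fell from 139.9 to 96.7 CPM (-0.53), while the coreceptor Tgfbr3 (0.44) rose.

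In the insulin-like growth factor axis the largest change was in Pappa, the protease that frees the growth factors from their binding proteins. Pappa read 22.2, 21.6 and 19.8 CPM with vehicle and 6.21, 7.61 and 7.61 CPM with E2 (2.97-fold lower, -1.45, SE 0.107, adjusted p = 3.89e-09), with no overlap. Its substrates Igfbp4 (from 191 to 138 CPM, -0.47) and Igfbp5 (from 4.33 to 1.47 CPM, -1.11, and -0.60 with a pseudocount of 4 CPM) and a further binding protein, Igfbp6 (-0.52), fell too, while Stc2, which binds and inhibits this protease, rose as given above. Of 10 tested members 2 were higher and 4 lower, and 1 and 4 with median-of-ratios factors.

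Of 24 tested genes of cholesterol synthesis and uptake 14 fell and none rose (median -0.18), and the counts were 16, 15 and 11 lower with median-of-ratios factors, after quantile normalization and without library 1 of both groups. Cyp51 read 352, 381 and 354 CPM with vehicle and 268, 289 and 268 CPM with E2 (-0.40, adjusted p = 6.27e-06), and Idi1 (-0.39) and Hmgcs1 (-0.31), enzymes of the same pathway, fell as well. In a list that mixes fatty acid synthesis with oxidation 9 of 23 were lower and 2 higher, and 1 was higher under either other scaling. The desaturase Scd1 fell from 715 to 534 CPM (-0.42), the elongase Elovl6 by 0.39, and Angptl4, an inhibitor of lipoprotein lipase, from 13.5 to 6.58 CPM (-0.94), while Acadvl, an enzyme of mitochondrial oxidation, rose (0.24).

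Of 28 tested genes of mitosis 14 fell and 1 rose (median -0.12), and of 30 genes of replication 11 fell and 1 rose (median -0.09), counts that without library 1 of both groups were 12 and 0, and 6 and 0. Of the replication genes 14 fell with median-of-ratios factors and 6 after quantile normalization. Plk1, a mitotic kinase, read 196, 197 and 190.3 CPM with vehicle and 164, 158 and 164 CPM with E2 (-0.26, adjusted p = 0.000253), and Nusap1, a spindle protein, fell from 75.7 to 61.2 CPM (-0.30). Rrm1 (-0.24) and Tk1 (-0.36), which supply deoxynucleotides, fell among the replication genes. E2f1 was called higher (0.20), but not without library 1 of both groups (0.19). Of 23 mitotic genes with a promoter window 15 held TTTGAA, the cell cycle homology region, against 17.9% of all windows. Of 19 tested immediate early genes 8 were lower and 1 higher, with Klf4 (-0.24) lower and Junb (0.20) higher. Of 21 respiratory chain subunits 1 was higher (Sdha, 0.22) and none lower. Of 20 ribosomal protein genes 5 were lower, and 2 without library 1 of both groups. Their median log2 difference was -0.23, against 0.04 over all tested genes, and 1 of the 20 had a positive difference. With scrambled siRNA none was called and the median was -0.05. For 16aOHE against vehicle in siCYP1B1 cells the median was -0.22. The part of RNA quality in this shift was not tested. Ribosomal protein genes also have many processed copies, so that their reads are uncertain.

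Among inflammatory genes of the NF-kB list 5 of 17 were lower and 2 higher, and 3 and 2 without library 1 of both groups. The alarmin Il33 fell from 25.4 to 18.9 CPM (-0.41). The chemokine Cxcl1 fell from 4.90 to 3.23 CPM (-0.49, and -0.30 with a pseudocount of 4 CPM), with its call lost without vehicle library 1 (-0.46), vehicle library 3 (-0.50), E2 library 2 (-0.37) or library 1 of both groups (-0.51). The adhesion molecule Icam1 fell from 9.32 to 7.19 CPM (-0.33), a call lost without vehicle library 1 (-0.29), E2 library 2 (-0.32) or library 1 of both groups (-0.32). Of 8 tested genes of the aryl hydrocarbon receptor pathway, which controls Cyp1b1 in many cells, 3 were higher and 2 lower, and the target Aldh3a1, an aldehyde dehydrogenase, read 37.6, 39.9 and 44.2 CPM with vehicle and 18.6, 20.5 and 22.0 CPM with E2 (-0.96, adjusted p = 5.35e-06). The receptor Ahr averaged 22.0 CPM and 24.4 CPM (difference 0.15, adjusted p = 0.163). In BMP signalling, a pathway in which inherited pulmonary hypertension mutations lie, 2 of 14 members were higher and 2 lower, beside 16.7% and 10.8% of all tested genes. The BMP counts were none and 4 with median-of-ratios factors, and none and 3 without library 1 of both groups. The accessory receptor Eng fell from 8.89 to 6.72 CPM, and Bmpr2, the type II receptor, averaged 96.1 CPM and 109.7 CPM (0.19, adjusted p = 0.105). Of 14 YAP and CCN targets 4 were lower, among them Nov (-0.66), a matricellular protein, and 3 higher, among them F3, tissue factor (from 5.50 to 8.44 CPM, 0.54). C2, a complement protease, rose from 89.3 to 126 CPM (0.49) and was the 1 of 7 tested members called in a list of early complement components and regulators that does not hold C9, which fell as given above.

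**Figure D3:**
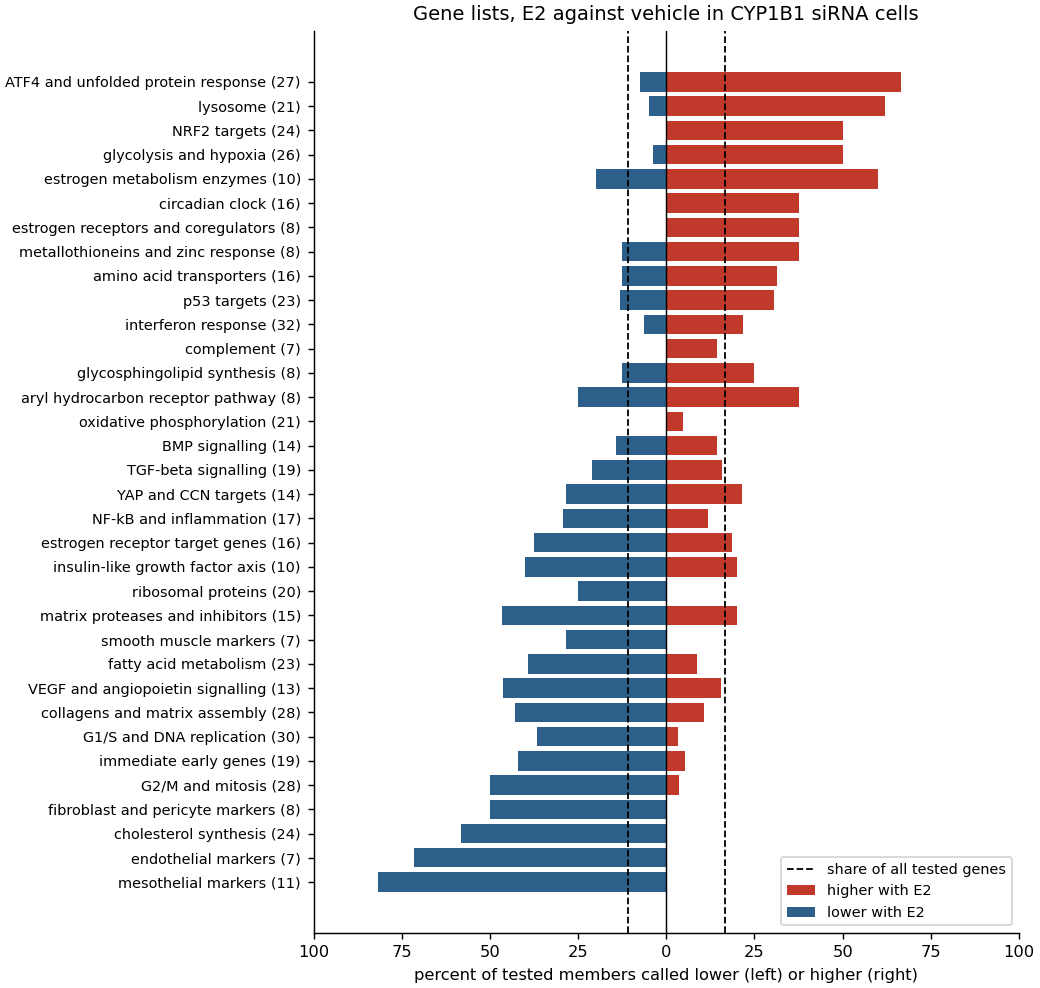
Share of the tested members of each gene list that were called higher (right, red) or lower (left, blue) with E2 in siCYP1B1 cells, as a percent, with the number tested in parentheses and dashed lines at the shares of all tested genes, 16.7% and 10.8%. Lists with at least 7 tested members are shown. ATF4, lysosome, NRF2 and glycolysis genes lie at the top, and mesothelial, endothelial and cholesterol genes at the bottom.

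The same treatment was set beside its effect in cells with scrambled siRNA, which shares no library with the comparison above. There E2 raised 2201 genes (18.6%) and lowered 1343 (11.4%). In all 2424 genes were called in the same direction in both, which is 74.5% of those called with CYP1B1 siRNA and 68.4% of those called with scrambled siRNA, and none was called in opposite directions. The log2 differences correlated at r = 0.836 across genes, which are not independent replicates, and 98.7% of the genes called in siCYP1B1 cells had the same sign in scrambled cells. No gene passed the direct test of the difference between the effects (0% of those tested, smallest adjusted p = 0.386 from limma), and none passed under any alternative run. At an unadjusted p below 0.05 there were 472 genes (3.99%), and the median standard error of a difference of effects was 0.0903. The 830 genes called with CYP1B1 siRNA but not with scrambled siRNA were thus not shown to differ.

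The smallest unadjusted p-values of that test belonged to Stc2 and A4galt, named here after their values were seen. With scrambled siRNA Stc2 read 5.75, 5.71 and 5.35 CPM with vehicle and 16.9, 17.8 and 18.5 CPM with E2, a log2 difference of 1.5 against 0.79 with CYP1B1 siRNA (difference of effects -0.71, SE 0.135, limma adjusted p = 0.386). Its vehicle level was higher with CYP1B1 siRNA, whereas its E2 levels lay closer together. A4galt followed the same course, with 8.34, 7.53 and 7.63 CPM and 21.4, 23.7 and 21.7 CPM in scrambled cells, a log2 difference of 1.40 against 0.88 (adjusted p = 0.388). Mt2 read 11.1, 10.9 and 10.6 CPM and 41.7, 48.1 and 46.9 CPM in scrambled cells, and its effect there (1.97) stood beside 1.72 in siCYP1B1 cells (difference of effects -0.25, adjusted p = 0.998). Col3a1 (-0.73 against -0.93), Krt18 (-1.98 against -1.64) and Pappa (-1.12 against -1.45) fell with both siRNAs. Among list counts, cholesterol synthesis had 7 lower and 1 higher with scrambled siRNA and 14 and 0 with CYP1B1 siRNA, but no member passed the test of the difference. At an unadjusted limma p below 0.05 in that test there were 4 of its 24 genes, beside 3.99% of all tested genes. Other lists, named after their values were seen, had larger shares: 7 of 19 for TGF-beta, 5 of 14 for YAP and CCN and 4 of 10 for the insulin-like growth factor axis.

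**Figure D4:**
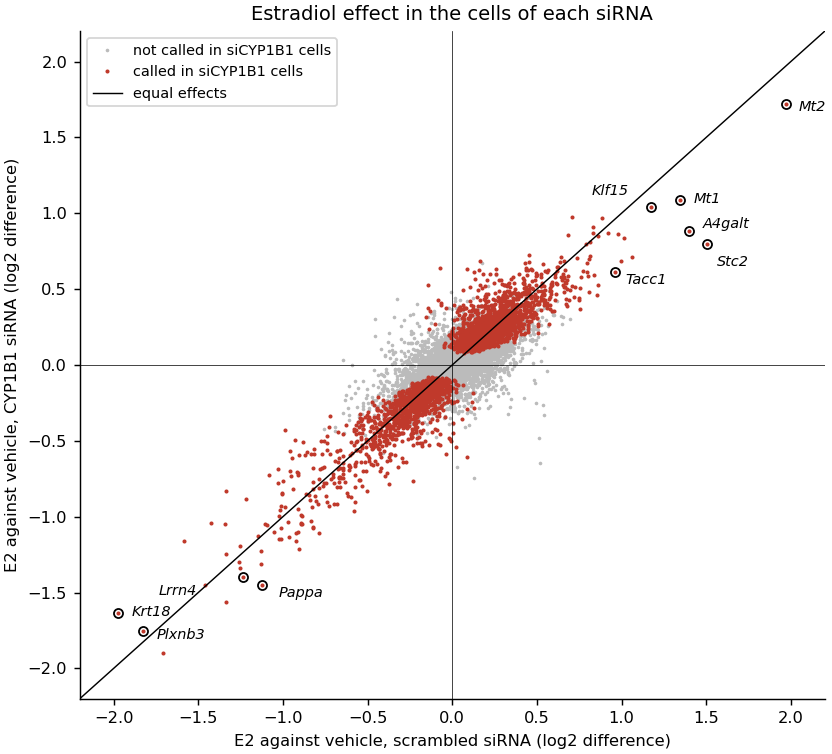
Log2 difference of E2 against vehicle with CYP1B1 siRNA (vertical) and with scrambled siRNA (horizontal), 1 point per tested gene, red where called with CYP1B1 siRNA, with the line of equal effects. Points follow the line (r = 0.836). Of the circled genes, Stc2 and A4galt lie farthest to its right. Tacc1, circled but not named in the text, differed by 0.62 with CYP1B1 siRNA and 0.96 with scrambled siRNA.

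At the same dose and time, 16aOHE gave another profile in siCYP1B1 cells. In the direct comparison of the 2 estrogens 780 genes were higher (6.60%) and 1394 lower (11.8%) with 16aOHE than with E2. The count of 2174 in all fell to 1448 when library 2 of 16aOHE was left out. Mt2 read 12.6, 10.3 and 11.3 CPM with 16aOHE, against 12, 13.8 and 12.8 CPM with vehicle and 45.9, 44.6 and 43.4 CPM with E2, a log2 difference of -1.88 from E2 (adjusted p = 1.64e-12). Hmox1 read 238, 228 and 234 CPM with 16aOHE (-0.51 against E2, adjusted p = 2.33e-07), Chac1 15.4, 17.6 and 14.2 CPM (-0.80, adjusted p = 1.08e-06) and Mcoln1 51.5, 44.5 and 49.1 CPM (-0.54, adjusted p = 5.21e-06). For these genes the 16aOHE libraries lay among or close to the vehicle libraries and apart from the E2 libraries. By list, 18 of 27 ATF4 genes, 17 of 21 lysosomal genes, 17 of 26 glycolysis and hypoxia genes and 12 of 24 NRF2 genes were lower with 16aOHE than with E2. These genes and lists were picked out because they were higher in the same E2 libraries. A lower level with 16aOHE was therefore partly set by that choice, and the counts and p-values are descriptions.

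Several genes that E2 lowered lay nearer to vehicle with 16aOHE, and in the direct comparison 9 of 11 mesothelial markers and 15 of 28 collagen and matrix genes were higher than with E2. They were likewise picked out by their low values in the same E2 libraries, which partly set this direction. Lrrn4 read 69.4, 66.3 and 65.0 CPM with 16aOHE, between its E2 and vehicle libraries (0.92 against E2, adjusted p = 9.09e-11), and so did Col3a1 at 2147, 2182 and 2278 CPM (0.62, adjusted p = 9.98e-11). Pappa read 20.6, 17.3 and 17.9 CPM, close to its vehicle libraries (1.27, adjusted p = 7.73e-08), and Angptl4 averaged 14.3 CPM (1.02). For other genes that E2 raised no difference between the estrogens passed the test. A4galt read 22.5, 21.1 and 23.9 CPM with 16aOHE (0.11 against E2, 95% interval -0.05 to 0.26, adjusted p = 0.35). Tmem86a read 9.03, 7.73 and 9.47 CPM (-0.17, interval -0.39 to 0.05, adjusted p = 0.279). Dhrs3 averaged 73.9 CPM (-0.10, interval -0.23 to 0.03, adjusted p = 0.279), although a p that misses the threshold does not show that the estrogens act alike. Lpl, lipoprotein lipase, went the other way: it read 426, 446 and 451 CPM with vehicle, 441, 451 and 474 CPM with E2 (difference 0.05, adjusted p = 0.385) and 713, 696 and 733 CPM with 16aOHE, higher than with E2 by 0.65 (adjusted p = 1.6e-10). Because 16aOHE was compared with the same vehicle and E2 libraries, these levels are given side by side and no overlap of gene sets is drawn from them.

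**Figure D5:**
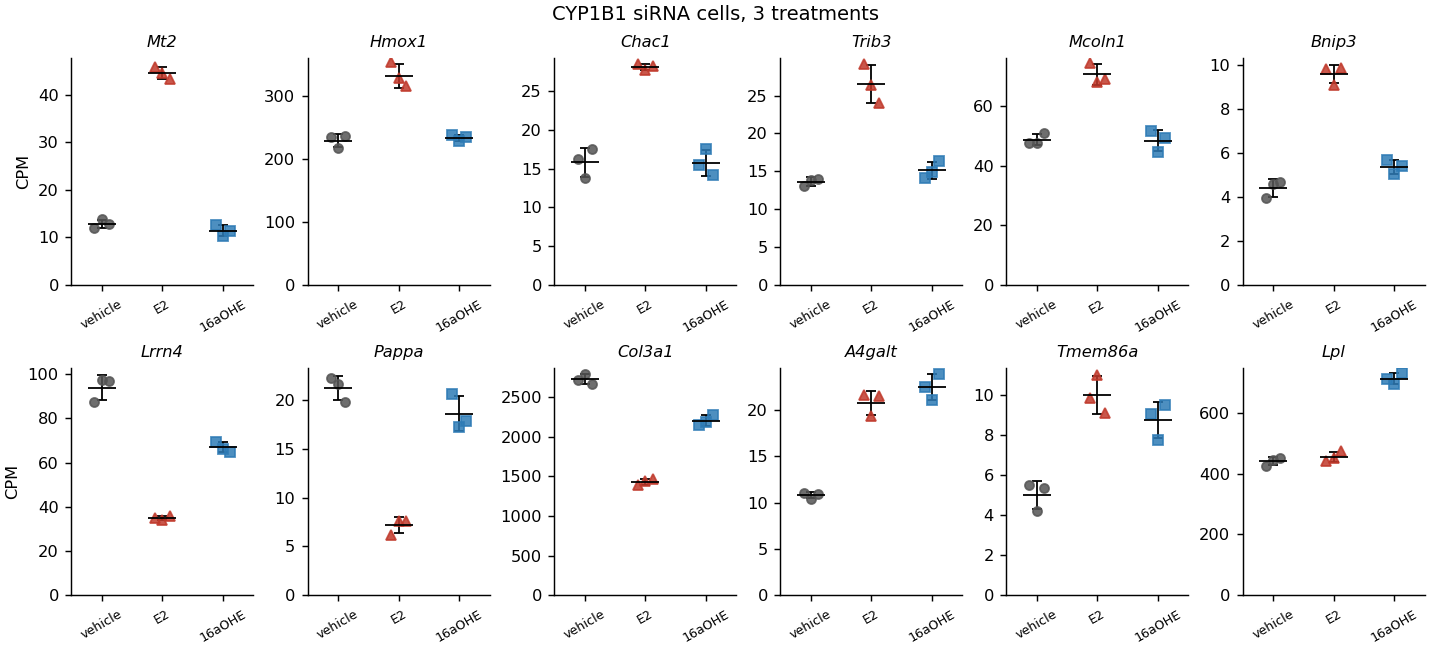
CPM of 12 genes in siCYP1B1 cells with vehicle (circles), E2 (triangles) and 16aOHE (squares), 1 point per library, with the mean as a line and the SD of 3 libraries as bars, axes starting at 0. For Mt2, Hmox1, Chac1, Trib3, Mcoln1 and Bnip3 the E2 libraries lie above both other groups, for A4galt and Tmem86a both estrogens lie above vehicle, and for Lpl only 16aOHE does.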

How the data were processed

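RNA of 18 libraries was sequenced, and the text rests mainly on the 6 siCYP1B1 libraries with vehicle or E2. The authors deposited a table of CPM values for 15288 genes with a constant of 0.0001 added to each value, which was subtracted here. Per the submitters' processing notes, reads went through TopHat2 and Partek on mm10. Versions, annotation, strand setting and filters: not given in the sources used here. Low values were whole multiples of a step for 93.5% to 94.8% of entries within a tolerance of 0.1 reads, so that count models were not used. Values were tested as log2(CPM + 1) with limma 3.58.1 in R 4.3.3 (lmFit over all 6 groups, eBayes with trend, Benjamini-Hochberg adjustment over the 11822 genes, threshold 0.05), a scale that understates changes of low genes, and the procedure was tested on simulated data. Adjusted p-values are from limma throughout. Groups follow the labels, and library numbers only name libraries in accession order. Lists and members were chosen with earlier results of these data known, and the TGATGNAA and GTCACGTG motifs and the alternative without library 1 of both groups were chosen after seeing the data. Named genes were Cyp1b1 and the receptors, up to 15 per direction with the largest difference among called, non-overlapping genes without predicted-gene, small RNA or pseudogene names, up to 5 called members per direction of each list, and marker genes. Other list members were named after their values were seen. Some genes that the rule names are not reported here. Promoter windows of 300 bases from RefSeq (GRCm38.p6) were found by symbol for 9318 tested genes, and motifs were searched on both strands. Motif shares are over all windows, those of untested genes included, while list counts are over tested members. A share over tested genes alone was not computed, so enrichment in a list was not tested. Alternatives covered the pseudocount, the minimum, scaling, the variance model, the groups fitted and each library left out.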

Additional observations from a re-analysis of the deposited data

How the results depend on the processing

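No paired analysis was possible because the labels carry no replicate numbers. Without library 1 of both groups, chosen after seeing the data, 1212 genes were higher with E2 and 871 lower, and 2011 of the 3254 calls remained in the same direction. Leaving out 1 of the 6 libraries gave 1531 to 1619 genes higher and 997 to 1064 lower. For 16aOHE against E2, 1514 to 1611 genes were called without 1 of the E2 libraries, and 1448 to 2229 without 1 of the 16aOHE libraries. Under pseudocounts of 0.25 and 4 CPM, other minimums, other scalings, eBayes without trend and a fit to the compared groups alone, each count stayed within 1.5 times its value, and the difference between siRNAs gave 0 calls under every one of them. With quantile normalization 3 called genes changed sign and with the other alternatives none did. Of 193 named genes with a test, 50 lost their call under at least 1 alternative and none reversed with a call. Depth was similar in the 6 libraries, and genes near 1 CPM rest on few reads.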

Other observations

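A pair of related genes outside the lists, named after their values were seen, were among the genes that fell. Txnip and Arrdc4 encode alpha-arrestins that lower glucose uptake at the cell surface. With E2 in siCYP1B1 cells Txnip read 133, 131 and 141 CPM with vehicle and 65.5, 56.8 and 59.5 CPM with E2, a log2 difference of -1.15 (SE 0.082, adjusted p = 2.74e-09). Arrdc4 read 12.4, 9.98 and 13.6 CPM and 5.94, 4.80 and 5.06 CPM (-1.05, SE 0.106, adjusted p = 3.11e-07). In both genes every E2 library lay below every vehicle library. With 16aOHE they averaged 100.1 and 9.66 CPM, and the direct differences from E2 were 0.71 (adjusted p = 3.73e-06) and 0.77 (adjusted p = 3.35e-05). Their low values in the same E2 libraries had led to their choice, which partly set this direction.

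Other decreases of at least 2-fold outside the lists included Jag1, a Notch ligand (from 20.3 to 8.75 CPM, -1.13, adjusted p = 4.42e-08), Gata5, a transcription factor (from 6.87 to 2.82 CPM, -1.05), and Has1, a hyaluronan synthase that mesothelium expresses (from 6.39 to 2.5 CPM, -1.08). Cldn1, a tight junction protein, fell from 4.52 to 1.64 CPM (-1.07). In scrambled cells the E2 differences of these genes were -1.15, -1.10, -0.82 and -1.01.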
